A study of Mus musculus with 16 samples.

Results

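The oligoadenylate synthetase family was followed through mouse leukaemia cells with an inducible knockdown of their fusion oncogene. The 8 members were the genes of the expected count table whose symbol was Oas1a, Oas1b, Oas1c, Oas1g, Oas2, Oas3, Oasl1 or Oasl2, out of 55487 genes in all. All 8 had enough counts to be tested, among 14435 genes tested. The family had its lowest mean levels in secondary disease. Doxycycline was accompanied by a higher Oasl2 in bone marrow, the 1 member to pass the test there, beside 6.57% of all genes tested. The call was lost when any 1 bone marrow library was left out. In spleen no member passed, beside 0.741% of all genes.

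The cells carried the fusion gene CBFB::MYH11 with GFP and, per the design text, an shRNA against MYH11 that doxycycline switches on, and they grew in congenic recipient mice. After engraftment the mice drank 5% sucrose water (control) or 3 mg/ml doxycycline in 5% sucrose for 7 days, after which cells sorted for GFP were taken from the bone marrow or the spleen. Each of the 4 groups so made (control and doxycycline in either tissue) had 3 libraries. A further 4 libraries of secondary disease came from spleens of a separate cohort on doxycycline, taken when signs of fatal disease appeared. The labels of the control libraries name fusion-expressing cells alone, while by the design text both arms were transduced. The mouse strain, beyond congenic, and the age are not given here. No library here is of cells given doxycycline without carrying the shRNA, so the effects of drug and knockdown cannot be told apart. Secondary disease differed from the 7-day groups in cohort and duration together, and from the 7-day controls in doxycycline as well. The titles number the samples but do not call them separate animals, so every p-value rests on the spread between samples, which may be technical.

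Oligoadenylate synthetases are cytosolic sensors of double-stranded RNA that are encoded by interferon-induced genes. On binding RNA, OAS1-, OAS2- and OAS3-type enzymes join ATP into 2′-5′-linked oligoadenylates (2-5A), a second messenger of antiviral defence. The OAS-like proteins carry ubiquitin-like domains: mouse Oasl2 is enzymatically active, whereas Oasl1 is not and is known to restrain translation of Irf7 mRNA. Mice hold several Oas1 copies, of which Oas1a and Oas1g encode active enzymes, and Oas1b is the flavivirus resistance gene, truncated in many laboratory strains.

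In the GRCm38 annotation (GENCODE M21, 1-based coordinates), all 8 members lie on chromosome 5, in 2 clusters. Oasl2 (ENSMUSG00000029561, chr5:114896936-114912234, plus strand, 6 exons) and Oasl1 (ENSMUSG00000041827, chr5:114923240-114937915, plus strand, 6 exons) are neighbours. The other cluster spans 191.3 kb and holds 10 genes. It starts with Oas2 (ENSMUSG00000032690, chr5:120730333-120749853, minus strand, 12 exons) and Oas3 (ENSMUSG00000032661, chr5:120753098-120777661, minus strand, 16 exons). Oas1c (ENSMUSG00000001166, chr5:120800194-120812514, minus strand) and Oas1b (ENSMUSG00000029605, chr5:120812635-120824163, plus strand, annotated as a polymorphic pseudogene) are head to head, with 120 bases between their starts. Oas1g (ENSMUSG00000066861, chr5:120876142-120887613, minus strand) and Oas1a (ENSMUSG00000052776, chr5:120896256-120907521, minus strand) follow. The remaining 4 genes of the cluster, Oas1d, Oas1e, Oas1f and Oas1h, are not members.

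The sequences just before the gene starts are shown as a description, and their part in the levels of the members was not tested. They are from RefSeq promoter entries of GRCm38.p6, which existed for 6 of the 8 members (Oas1a, Oas1c, Oas1g, Oas3, Oasl1 and Oasl2). Capitals mark each match to GAAANNGAAA, the letters of an interferon-stimulated response element, searched on both strands (TTTCNNTTTC on the other). Each run is 120 bases, 5′ to 3′ on the strand of the named gene.
Oas1a, chr5:120907526-120907645, minus strand: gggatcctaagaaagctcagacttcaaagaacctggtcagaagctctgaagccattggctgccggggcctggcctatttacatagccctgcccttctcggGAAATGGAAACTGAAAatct
Oas1g, chr5:120887614-120887733, minus strand: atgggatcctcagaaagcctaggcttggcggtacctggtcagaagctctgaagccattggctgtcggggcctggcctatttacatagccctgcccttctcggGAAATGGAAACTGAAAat
Oas1b, read from the Oas1c entry, chr5:120812515-120812634, plus strand: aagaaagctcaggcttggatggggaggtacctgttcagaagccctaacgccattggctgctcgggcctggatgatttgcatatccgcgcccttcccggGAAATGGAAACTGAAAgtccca
Oas3, chr5:120777662-120777781, minus strand: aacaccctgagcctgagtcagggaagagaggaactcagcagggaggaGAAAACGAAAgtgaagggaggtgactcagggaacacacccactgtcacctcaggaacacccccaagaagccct
Oasl2, chr5:114896814-114896933, plus strand: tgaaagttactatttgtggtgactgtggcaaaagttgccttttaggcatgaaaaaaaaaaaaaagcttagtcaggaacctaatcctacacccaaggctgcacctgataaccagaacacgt

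The same run of 16 letters, GAAATGGAAACTGAAA, stood before Oas1a, Oas1g and Oas1b, and it holds 2 matches that share their middle GAAA. Its first base lay 20 bases before the start of Oas1a and 18 before that of Oas1g, counted from the RefSeq starts. The RefSeq start of Oas1a lies 4 bases upstream of its GENCODE start, and for Oas1g both are the same base. For Oas1b the run began 22 bases before the GENCODE start. Since Oas1c starts at the other end of the same 120 bases, the run lies on its opposite strand, 114 to 99 bases before its start. Within 250 bases before the start, 4 of the 6 members with an entry held a GAAANNGAAA match, against 2.98% of 32851 promoter entries (978). The 16-letter run itself was found in 7 of these entries, belonging to 5 genes: Oas1a, Oas1c, Oas1g, Apol9a and Apol9b. No match stood before Oasl1 or Oasl2. The letters TTCNNNGAA of an interferon gamma activated site, which read the same on both strands, were found before Oas1a, against 7.02% of promoter entries. The 250 bases before Oas1a and Oas1g were 82.8% identical. A match describes letters and does not show a bound site.

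Oas1a and Oas1g are close copies, and this limits how far their counts can be told apart. Of all 50-base stretches in the annotated transcripts of Oas1a, 57.6% also occur in Oas1g, and of those of Oas1g 45.2% occur in Oas1a, whereas for Oas1b 1.2% and for Oas1c 9.8% occur in any other family gene, and for Oas2, Oas3, Oasl1 and Oasl2 0% do. The expected counts of Oas1a and of Oas1g were each not whole in 15 of 16 libraries, while their sum was not whole in 1 (tolerance 0.02 counts). Values of Oas1a and Oas1g are therefore uncertain where the split matters. Genes on the opposite strand overlap Oas1c, Oas2 and, by 38 bases, Oasl1. No source used here states a stranded count, so reads of such partners cannot be told apart.

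Total expected counts ran from 12259707 to 39419370 per library. Secondary disease replicate 4 stood apart: it was the shallowest, 4.87% of its counts lay outside the tested genes (at most 0.07% elsewhere), and its median correlation with its group was 0.823. The spleen doxycycline libraries were also unlike each other (0.923 to 0.942), whereas every other library had at least 0.981. Mouse Myh11 had 0 to 9 counts in every library, so the shRNA target, which is part of the fusion, could not be checked from this gene. Of the markers of the labelled cells, Kit averaged 72.7 to 258.6 CPM over the groups, while Cd34 was at 0.9 CPM or less in every library and Ptprc averaged 2.76 to 14.3 CPM. CPM are counts scaled to a fixed library total after TMM scaling, a correction for library composition, and serve to compare 1 gene across libraries. TPM, which are also divided by transcript length, serve to compare genes within a library.

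Oas1a was the most abundant member per length in every control and secondary disease library, and Oasl2 in every bone marrow doxycycline library. The summed TPM of the 8 members was 69.5 to 106.2 in bone marrow control, 180.1 to 296.7 in bone marrow doxycycline, 166.1 to 181.6 in spleen control and 27.5 to 35.6 in secondary disease. It was 102.7, 181.7 and 38.0 in spleen doxycycline replicates 1, 2 and 3. In bone marrow control, Oas1a had 41.0 ± 1.1 TPM (SD, n = 3) and made up 39.3 to 57.2% of the TPM of the family, whereas Oasl2 had 6.96 ± 5.42 TPM and 2.7 to 11.9%. In bone marrow doxycycline, Oas1a was at 40.8 ± 7.3 TPM, close to the control level, but its share was 16.5 to 21.2%. Oasl2 was at 87.9 ± 24.1 TPM there, or 38.1 to 39.4%, and Oas3 at 53.6 ± 17.7 TPM, or 21.6 to 24.7%. In spleen control, Oas1a led with 80.6 ± 2.5 TPM (45.3 to 47.0%), followed by Oas3 with 29.8 ± 2.1 TPM. Of the spleen doxycycline libraries, replicate 2 was led by Oas3 (38.5%) and replicates 1 and 3 by Oas1a (58.9% and 43.9%). In secondary disease, Oas1a was at 19.1 ± 4.0 TPM (SD, n = 4) and 48.1 to 64.8%, and Oas2 and Oas1g were at or under 0.16 TPM in each library.

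**Figure D1:**
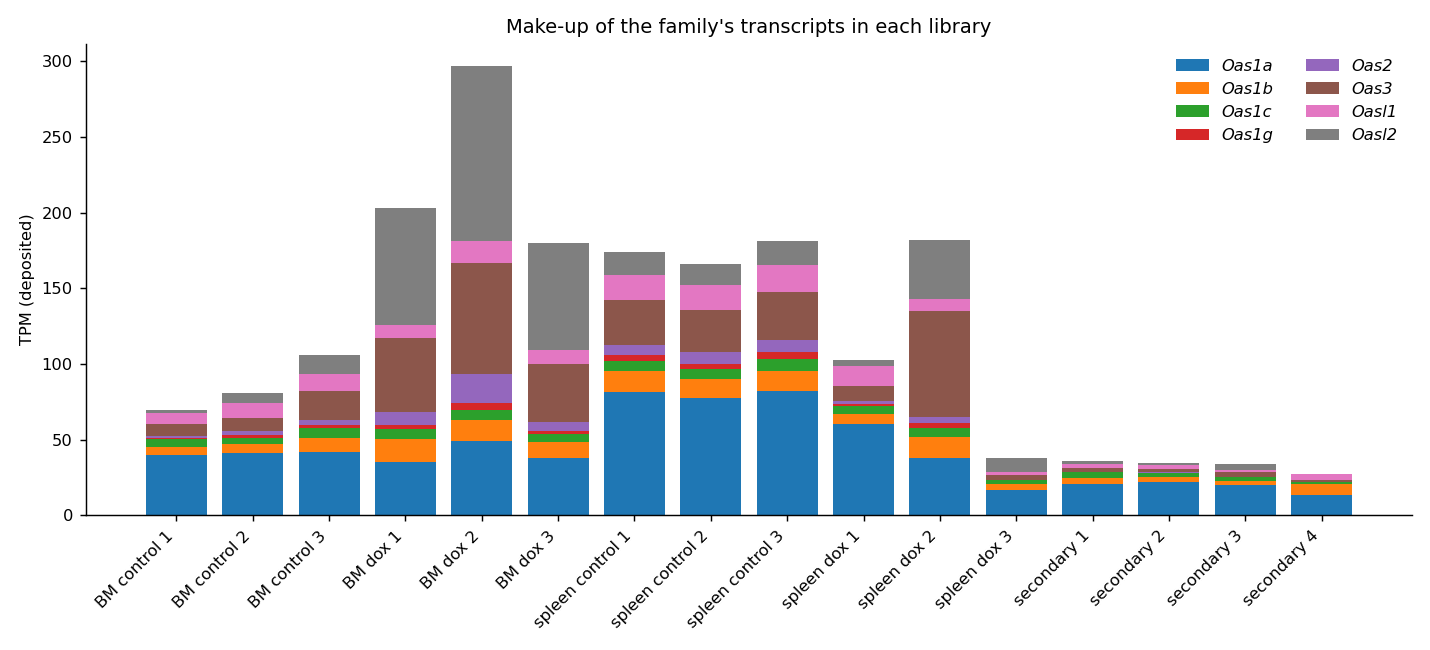
Stacked bars of deposited TPM of the 8 family members in each of the 16 libraries (vertical axis, TPM; BM, bone marrow; dox, doxycycline). The bone marrow doxycycline bars are led by Oasl2, with 38.1 to 39.4% of the family, and the secondary disease bars are short and led by Oas1a.

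Under doxycycline in bone marrow, Oasl2 rose, Oas2 and Oas3 lay above all controls without passing the test, and Oas1a and Oasl1 overlapped the controls. Oasl2, the active OAS-like enzyme, was at 2.45, 8.57 and 11.7 CPM in the 3 control libraries and at 84.7, 127.7 and 91.8 CPM in the 3 doxycycline libraries. Every doxycycline library was thus above every control. Its log2 fold change was 3.74 ± 0.90 (SE), with adjusted p = 0.0286 (edgeR quasi-likelihood test, Benjamini-Hochberg over all genes tested). Oas2, an enzyme with a pair of OAS domains, was at 4.41, 6.0 and 8.27 CPM in the controls and 26.0, 55.8 and 19.5 CPM under doxycycline. The groups did not overlap, and the log2 fold change of 2.44 ± 0.75 missed the threshold (adjusted p = 0.0677). Oas3, the longest synthetase, was at 27.5, 27.2 and 48.9 CPM in the controls and 151.3, 255.8 and 145.2 CPM under doxycycline. These groups did not overlap either, with a log2 fold change of 2.42 ± 0.75 (adjusted p = 0.0698). Replicate 2 was the highest doxycycline library for all 8 members.

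The Oas1 genes spread over a smaller range. Oas1g ranged from 0.53 to 1.54 CPM in bone marrow controls and from 2.01 to 5.67 CPM under doxycycline, a log2 fold change of 1.60 ± 0.84 (adjusted p = 0.295). Oas1b ranged from 5.30 to 8.22 CPM and from 11.1 to 14.9 CPM, which gave 0.97 ± 0.45 (adjusted p = 0.225). For Oas1c, which shares its 120 upstream bases with Oas1b, the range was 7.04 to 8.36 CPM against 9.56 to 10.1 CPM (0.32 ± 0.24, adjusted p = 0.510). None of these 3 passed the test, though none overlapped its controls. Oas1a was at 53.1, 56.3 and 47.7 CPM in the controls and 49.4, 72.5 and 60.4 CPM under doxycycline, with overlap. Oasl1, the OAS-like protein without enzyme activity, was at 10.6, 13.6 and 14.2 CPM and at 12.8, 23.8 and 13.4 CPM, again with overlap. With the counts of all 8 Oas1 genes of the cluster summed to 1 gene, so that the split between copies no longer matters, the log2 fold change was 0.37 ± 0.26 (adjusted p = 0.467).

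Of the 8 members, 1 passed the test in bone marrow, where 6.57% of all genes tested did in either direction and 3.96% were called higher. Without overlap, 6 of 8 members lay higher under doxycycline, as did 23.1% of all genes. The median log2 fold change of the members was 1.29, and that of all genes tested was -0.02. The call of Oasl2 rested on all 6 libraries: leaving out any 1 of them gave log2 fold changes of 3.33 to 4.17 with adjusted p between 0.0767 and 0.123, so that no member passed. Of all genes, 0.154 to 1.55% passed in these fits. Without secondary disease replicate 4, the library that stood apart, Oas2 passed as well (adjusted p = 0.0295), beside 17% of all genes. A fit on these 6 libraries alone called 5 members and 36.6% of all genes.

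**Figure D2:**
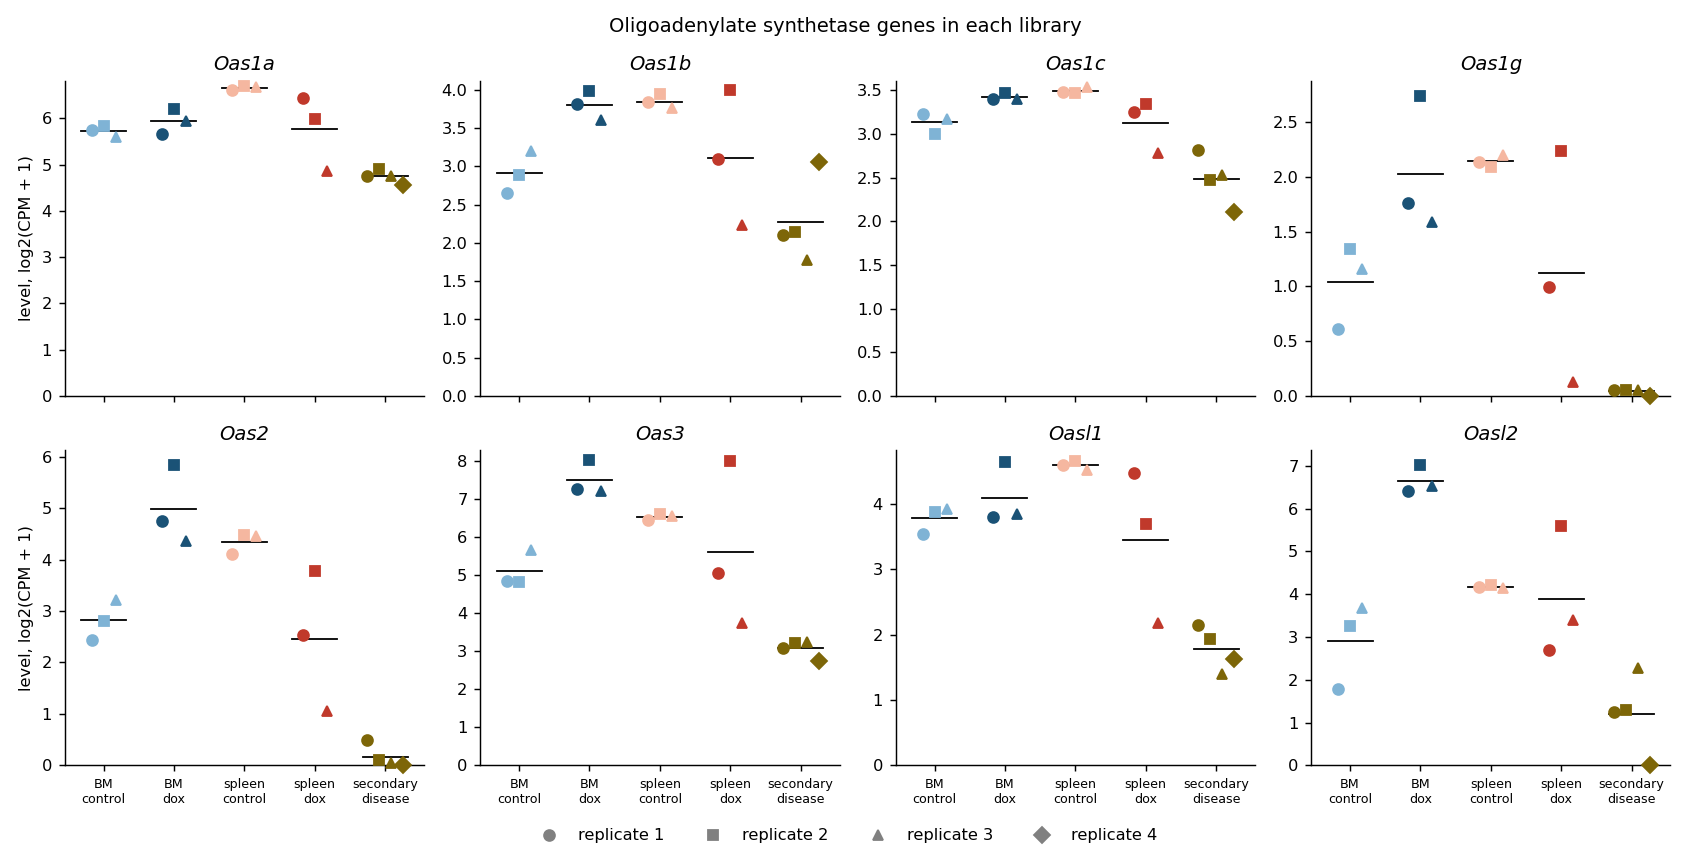
Levels of the 8 members in each library, as log2(CPM + 1), 1 panel a gene (BM, bone marrow; dox, doxycycline); symbols mark replicates and black lines the mean of the plotted values. In bone marrow, Oasl2 under doxycycline (84.7 to 127.7 CPM) stands above its controls (2.45 to 11.7 CPM), and secondary disease is the lowest group for Oas1g, Oas2 and Oas3.

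Markers of erythroid cells differed between the same libraries. Of 9 erythroid markers tested, 8 were called higher in bone marrow doxycycline, and their summed level was 48157 to 60846 CPM against 2386 to 4408 CPM in the controls. In bulk samples, fewer cells of a type and less RNA per cell cannot be told apart. Macrophage markers summed to 58.7 to 76.1 CPM against 20.4 to 52.0 CPM, with 0 of 11 tested called and Vsig4 and Marco at 0 or 1 count in every bone marrow library. Neutrophil markers summed to 306.8 to 625.9 CPM against 834.5 to 1255 CPM, with 0 of 10 called. Monocyte markers summed to 48.5 to 84.5 CPM against 114.1 to 123.3 CPM, with 0 of 8 called. Megakaryocyte markers summed to 79.4 to 111.6 CPM against 351.1 to 431.5 CPM, with 2 of 4 tested called lower. Plasmacytoid dendritic cell markers summed to 202.0 to 232.8 CPM against 207.1 to 238.7 CPM, with 0 of 7 tested called. Of these, Siglech had 0 to 13 counts and Klk1 0 or 1 count in bone marrow libraries. Whether the sorted leukaemia cells or other cells expressed the markers of these lists, and their part in the Oasl2 result, was not tested.

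In spleen after 7 days, doxycycline gave no called member, and the 3 treated libraries lay far apart. Oas3 was at 86.1, 96.0 and 91.8 CPM in the controls and at 32.3, 254.0 and 12.4 CPM in doxycycline replicates 1, 2 and 3. Thus replicate 2 was above every control and the other two were below. Oasl2 did likewise, with 16.9, 17.7 and 16.6 CPM in the controls and 5.46, 47.4 and 9.51 CPM under doxycycline. For Oas1a the order of the treated libraries was another: the controls were at 97.3, 102.9 and 101.1 CPM and the treated libraries at 86.2, 61.9 and 28.0 CPM. All 3 treated libraries were below all controls, and the log2 fold change was -0.77 ± 0.28 (adjusted p = 0.241). Oasl1 also had replicate 1 as its highest treated library, with 23.1, 24.1 and 22.0 CPM in the controls and 21.1, 11.9 and 3.53 CPM under doxycycline (-0.92 ± 0.47, adjusted p = 0.460).

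Oas2 was at 16.2, 21.1 and 21.1 CPM in spleen controls and 4.78, 12.7 and 1.09 CPM under doxycycline. The groups did not overlap, with a log2 fold change of -1.65 ± 0.73 (adjusted p = 0.375). Oas1g ranged from 3.26 to 3.58 CPM in controls and was at 1.00, 3.71 and 0.09 CPM under doxycycline. Oas1b ranged from 12.5 to 14.3 CPM and was at 7.55, 15.0 and 3.71 CPM, so that replicate 2 exceeded the controls for both. Oas1c ranged from 10.1 to 10.6 CPM in controls and from 5.89 to 9.17 CPM under doxycycline, without overlap (-0.38 ± 0.24, adjusted p = 0.584). Over the family, 0 of 8 members passed, beside 0.741% of all genes tested, and 2 of 8 had an unadjusted p under 0.05 (12.4% of all genes). DESeq2 and limma-voom called 0 as well, and leaving out replicate 1 of the treated libraries called Oas1a (adjusted p = 0.0147), beside 1364 genes in all. Without overlap, 4 of 8 members lay lower, as did 10.7% of all genes. The median log2 fold change was -0.69 for members and 0.02 for all genes.

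The summed level of the 8 members was 167.0, 415.8 and 64.2 CPM in spleen doxycycline replicates 1, 2 and 3. The erythroid markers summed to 5813, 86649 and 41039 CPM in the same libraries, against 3010 to 5096 CPM in spleen controls, with 4 of 9 called higher. Replicate 2 was highest in both sums, but replicate 3, the next highest in erythroid markers, was the lowest in the family. Across the bone marrow and spleen libraries at 7 days, the 4 highest values of Oas3 and of Oasl2 were in the 3 bone marrow doxycycline libraries and spleen doxycycline replicate 2, which also had the 4 highest sums of erythroid markers. This did not hold for any other member: each had spleen controls among its 4 highest values. For Oas1a the 3 spleen controls were the highest. Macrophage markers summed to 18.8, 125.3 and 71.5 CPM in spleen doxycycline replicates 1, 2 and 3, against 10.5 to 27.2 CPM in control. B or plasma cell markers summed to 48.1 to 159.1 CPM against 17.4 to 45.3 CPM, with 4 of 10 at an unadjusted p under 0.05 and a median log2 fold change of 2.13. Monocyte markers summed to 15.9 to 25.5 CPM in spleen doxycycline against 41.7 to 58.1 CPM in control, and megakaryocyte markers to 24.5 to 790.3 CPM against 348.9 to 429.3 CPM. No marker of these 4 lists was called. The part of these markers in the spleen values, and which cells expressed them, was not tested.

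**Figure D3:**
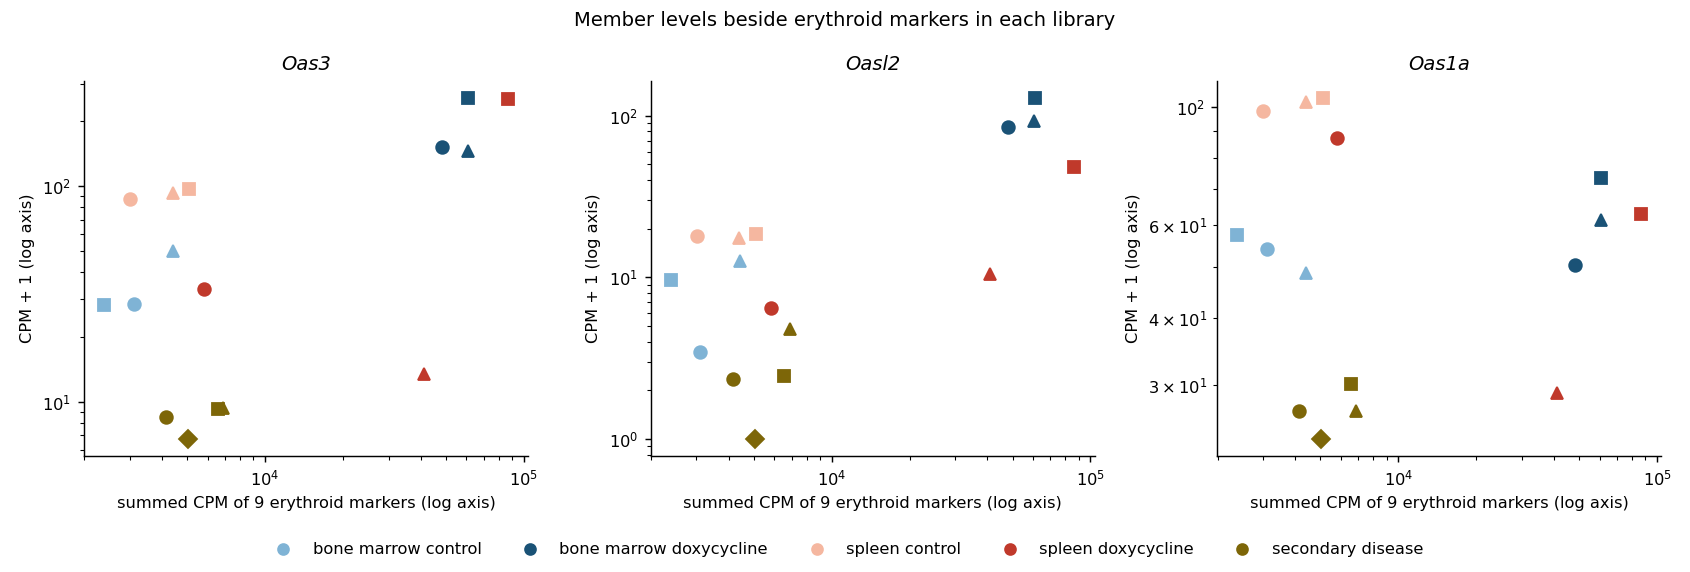
CPM + 1 of Oas3, Oasl2 and Oas1a (vertical, log axis) against the summed CPM of 9 erythroid markers (horizontal, log axis) in each library, coloured by group; circles, squares, triangles and diamonds are replicates 1 to 4. Spleen doxycycline replicate 3, with 41039 CPM of erythroid markers, lies low for Oas3 and Oas1a and at 9.51 CPM, amid the other libraries, for Oasl2.

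**Figure D4:**
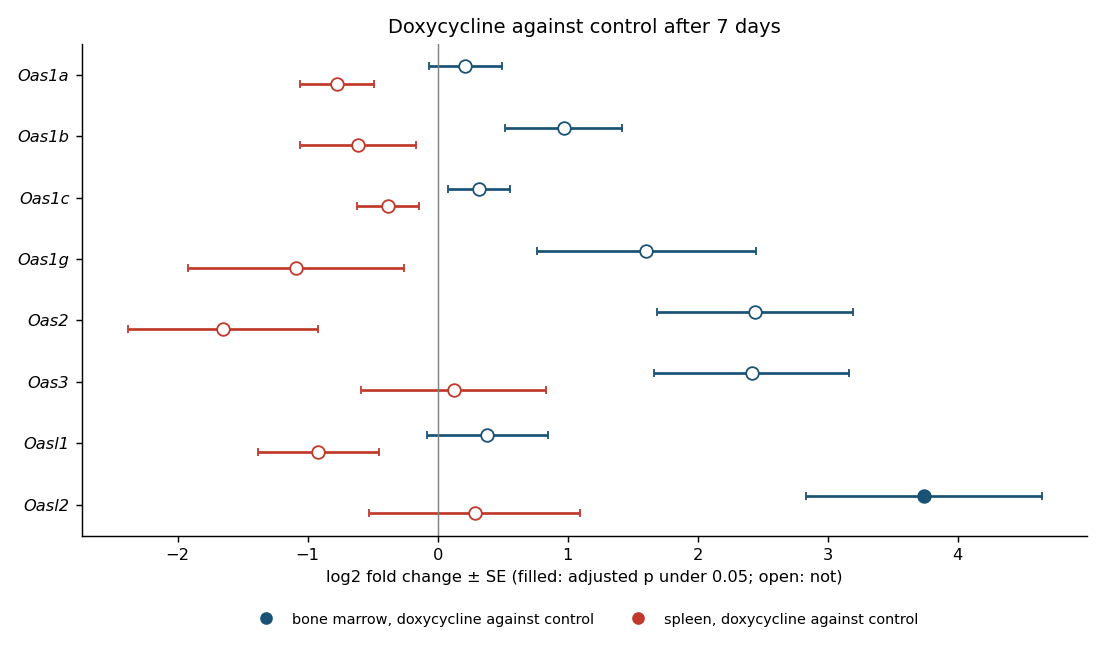
Log2 fold change (horizontal) with its SE for the 8 members under doxycycline against control, in bone marrow and in spleen; filled symbols passed at an adjusted p under 0.05 and open ones did not. Oasl2 in bone marrow, at 3.74, is the 1 filled symbol.

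The 2 tissues were then compared for their response to doxycycline within the same model. Fitted responses were lower in spleen than in bone marrow for all 8 members, with a median of -1.94 (log2) against 0.05 for all genes tested, but 0 of 8 passed and 0.0485% of all genes did. At an unadjusted p under 0.05 there were 6 of 8 (7.63% of all genes). Oas2 had the smallest p: its response differed by -4.09 ± 1.05 (adjusted p = 0.201), and it lay above all controls in bone marrow and below all controls in spleen. Oasl2 differed by -3.46 ± 1.18 (adjusted p = 0.410) and Oas3 by -2.29 ± 1.02 (adjusted p = 0.626). DESeq2 and limma-voom each called Oas2 alone of the members (adjusted p = 0.00945 and 0.0405), beside 1.8% and 0.236% of all genes. Spleen doxycycline replicate 2 decided this comparison: without it, 4.32% of all genes passed, among them 5 members, namely Oas1b (adjusted p = 0.0441), Oas1g (0.0468), Oas2 (0.0125), Oas3 (0.000519) and Oasl2 (0.0229).

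Between untreated tissues, all 8 members lay higher in spleen control than in bone marrow control with no overlap, as did 16.3% of all genes. The log2 fold changes ran from 0.40 ± 0.24 for Oas1c to 1.64 ± 0.73 for Oas2, with 0.94 ± 0.28 for Oas1a (100.4 ± 2.9 against 52.4 ± 4.4 CPM, SD, n = 3 each). In the fit of all libraries 0 of 8 members passed, beside 0.187% of all genes, and 3 of 8 had an unadjusted p under 0.05 (6.92% of all genes). DESeq2 and limma-voom called 0 as well, whereas edgeR on these 6 libraries alone called 6, beside 14.7% of all genes in that fit. The median was 1.09 for members and -0.01 for all genes. Neutrophil markers summed to 51.5 to 159.9 CPM in spleen control against 834.5 to 1255 CPM in bone marrow control, with 0 of 10 called. Monocyte markers summed to 41.7 to 58.1 CPM against 114.1 to 123.3 CPM, with 0 of 8 called (3 at an unadjusted p under 0.05). Of 11 markers of myeloid leukaemia or progenitor cells tested, 1 was called lower in spleen control, with a median of -1.97 and 7 at an unadjusted p under 0.05. Which cells expressed these markers, and their part in the difference, was not tested.

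Between the treated tissues, 0 of 8 members passed, beside 0.0485% of all genes, and 2 had an unadjusted p under 0.05 (10.9% of all genes). Members with no overlap were lower in spleen in 3 cases, namely Oas1c, Oas2 and Oasl2, beside 9.5% of all genes. The log2 fold change was -2.45 ± 0.75 for Oas2 (adjusted p = 0.221) and, for Oasl2, -2.29 ± 0.85 (adjusted p = 0.318). Without spleen doxycycline replicate 2, Oas2 (adjusted p = 0.0198), Oas3 (0.000929) and Oasl2 (0.0216) were called lower, beside 7.18% of all genes called. DESeq2 called Oas2 (adjusted p = 0.033) and limma-voom Oasl2 (adjusted p = 0.0462), beside 3.15% and 0.443% of all genes. The median of the members was -0.73 and that of all genes 0.03.

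In secondary disease every member lay below all spleen controls. Oas2 was at 0.41, 0.08, 0.04 and 0 CPM in the 4 libraries, which is 10, 2, 1 and 0 counts, against 368 to 858 counts in the spleen controls. Pooled over libraries, the ratio of spleen control to secondary disease was 132-fold, with a 95% interval for counting error alone of 77.2 to 249 (adjusted p = 0.00148 in edgeR). Oas1g had 0.04, 0.04, 0.04 and 0 CPM, or 3 counts in all, against 299 in spleen control. Its ratio was 99.8-fold (33.8 to 487, adjusted p = 0.0058). A count of 0 allows up to 3 counts in that library.

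Oas3 was at 7.49, 8.24, 8.39 and 5.72 CPM in secondary disease, below all 3 spleen controls, and fell by 3.60 ± 0.71 on the log2 scale (adjusted p = 0.0193). Oasl1 was at 3.44, 2.81, 1.64 and 2.08 CPM, below all spleen controls, and fell by 3.20 ± 0.46 (adjusted p = 0.00283). Oas1a was at 25.8, 29.1, 25.8 and 22.7 CPM, with its 4 libraries close together and below all spleen controls, and fell by 1.96 ± 0.27 (adjusted p = 0.00201). Oas1c ranged from 3.30 to 6.04 CPM and fell by 1.13 ± 0.22 (adjusted p = 0.0193). The others did not overlap the controls and missed the threshold: Oas1b (2.42 to 7.29 CPM, -1.72 ± 0.42, adjusted p = 0.0528) and Oasl2 (1.37, 1.45, 3.83 and 0 CPM, -3.28 ± 0.82, adjusted p = 0.0573). With the Oas1 genes summed, the log2 fold change was -1.88 ± 0.24 (adjusted p = 0.00156).

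Against spleen control, 6 of 8 members were called and all were lower, where 2.03% of all genes were called and 1.28% were called lower. All 8 lay lower without overlap, as did 12.4% of all genes, and the median log2 fold change was -3.24 (all genes 0.02). Oas1a, Oas1g, Oas2 and Oasl1 were called when any 1 of the 7 libraries was left out. Oas3 lost its call without any 1 spleen control or without secondary disease replicate 1, 2 or 3 (adjusted p 0.0545 to 0.0697). Oas1c lost it without any 1 spleen control or without secondary disease replicate 2 or 3 (adjusted p 0.0526 to 0.108). Without secondary disease replicate 4, the library that stood apart, 7 members and 3.67% of all genes were called. Erythroid markers summed to 4149 to 6873 CPM in secondary disease against 3010 to 5096 CPM in spleen control, with 0 of 9 called. In secondary disease replicates 1 to 4, monocyte markers summed to 13.7, 10.6, 9.33 and 98.6 CPM against 41.7 to 58.1 CPM, with 1 of 8 called lower. Neutrophil markers summed to 20.3, 11.8, 2.5 and 62.9 CPM against 51.5 to 159.9 CPM, with none called. Macrophage markers summed to 67.7, 18.8, 26.2 and 147.8 CPM against 10.5 to 27.2 CPM, also with none called. Replicate 4, the library that stood apart, was the highest for each of these sums. The part of these markers in the result, and which cells expressed them, was not tested.

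Against spleen doxycycline, 4 of 8 members were called lower (Oas1g, Oas2, Oas3 and Oasl1), where 0.928% of all genes were called and 0.707% were called lower. Without overlap, 5 of 8 lay lower, as did 4.16% of all genes. Oas1a, Oas1b and Oas1c overlapped spleen doxycycline. Oas3 fell by 3.73 ± 0.72 (adjusted p = 0.0307), and Oasl1 fell by 2.28 ± 0.45 (adjusted p = 0.0315). The pooled ratio of spleen doxycycline to secondary disease was 41.9-fold for Oas2 (24.3 to 79.3, adjusted p = 0.0201) and 46.6-fold for Oas1g (15.6 to 229, adjusted p = 0.0281). Oas1a missed the threshold (-1.18 ± 0.26, adjusted p = 0.0509) and overlapped, since spleen doxycycline replicate 3 (28.0 CPM) lay within the range of secondary disease. The 2 comparisons share the secondary disease libraries, so their values are side by side and not independent. These calls depended on single libraries. Without spleen doxycycline replicate 2 or without secondary disease replicate 1, 2 or 3, 1 or 0 members were called, beside 0 to 0.234% of all genes. Without spleen doxycycline replicate 1 or 3 or secondary disease replicate 4, 5 to 7 members were called, where 440 to 1336 genes in all were called. A fit on these 7 libraries alone called 0 members and 0 genes in all. The median log2 fold change was -2.93, and that of all genes was -0.01. Of the 9 erythroid markers, 4 were called lower in the same comparison, with sums of 4149 to 6873 CPM against 5813 to 86649 CPM, and their part was not tested.

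**Figure D5:**
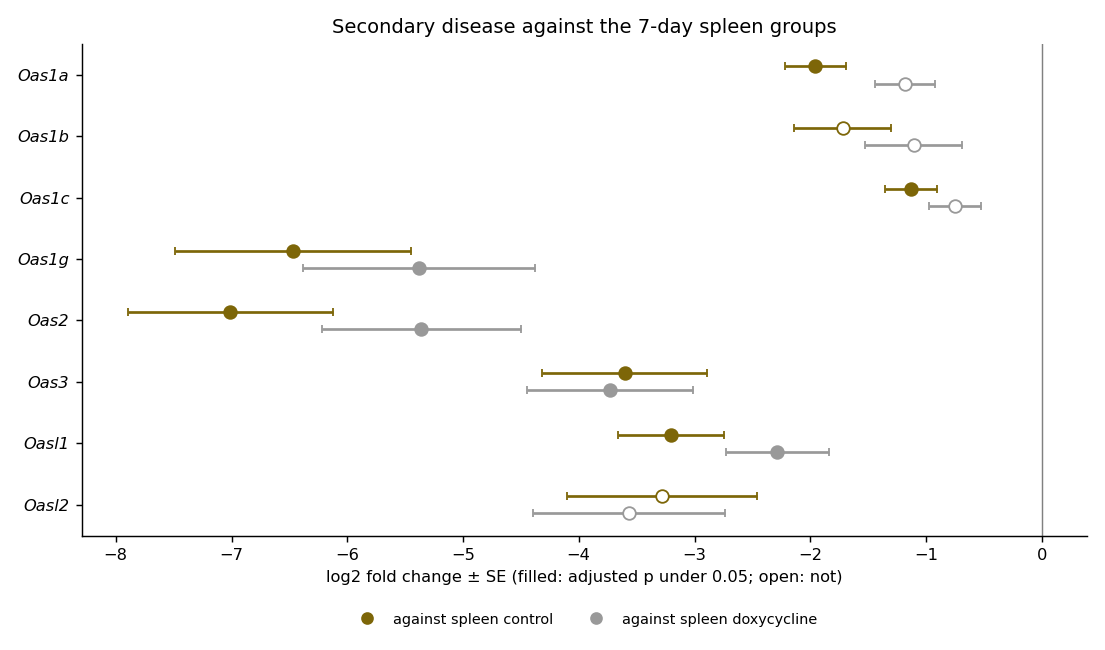
Log2 fold change (horizontal) with its SE for the 8 members in secondary disease against spleen control and against spleen doxycycline; filled symbols passed at an adjusted p under 0.05. All symbols lie below 0, with 6 filled against spleen control and 4 against spleen doxycycline; the positions of Oas1g and Oas2 depend on the counts near 0 given in the text.

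Ordered by mean CPM, several neighbouring groups did not differ beyond their spread. Oas1a was highest in spleen control (100.4 ± 2.9), then came bone marrow doxycycline (60.7 ± 11.5), spleen doxycycline (58.7 ± 29.2) and bone marrow control (52.4 ± 4.4), which overlapped each other, and secondary disease was last (25.9 ± 2.6, SD, n = 4). Oasl1 had the same order except that bone marrow control (12.8 ± 1.9) stood just above spleen doxycycline (12.2 ± 8.8). Oasl2 was highest in bone marrow doxycycline (101.4 ± 23.1), and spleen doxycycline (20.8 ± 23.1), spleen control (17.1 ± 0.5) and bone marrow control (7.58 ± 4.71) followed. Oas3 and Oas2 were also highest in bone marrow doxycycline, at 184.1 ± 62.1 and 33.8 ± 19.4 CPM. Oas1b, Oas1c and Oas1g had nearly equal means in spleen control and bone marrow doxycycline (13.4 and 13.01, 10.3 and 9.73, 3.41 and 3.36 CPM). Secondary disease had the lowest mean for each member, at 0.13 ± 0.19 CPM for Oas2 and 7.46 ± 1.22 CPM for Oas3. Its ranges of Oas1b and Oasl2 overlapped those of bone marrow control. Secondary disease was not tested against bone marrow.

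The other Oas1 genes of the cluster were too low to test. Oas1e had 16, 44 and 8 counts in bone marrow doxycycline and at most 3 counts in any control library, and 0 to 5.1 counts elsewhere. Oas1f had 3, 5 and 4 counts in bone marrow doxycycline, 1 in a single spleen doxycycline library and 0 in all others. Oas1d and Oas1h had at most 3 counts in any library.

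Interferon genes themselves were nearly silent: of 21 ligands 0 were tested, and their summed level was at most 0.54 CPM in any library. Of 21 genes for interferon receptors and signalling, 1 was called higher in bone marrow doxycycline, close to the share of all genes (3.96%). It was Irf9, the DNA-binding subunit of the ISGF3 complex (87.4 ± 5.0 to 162.6 ± 7.8 CPM, log2 fold change 0.90 ± 0.23, adjusted p = 0.0351). Irf7, which drives interferon alpha genes, went from 36.4 ± 6.9 to 107.4 ± 21.9 CPM there without passing (1.56 ± 0.47, adjusted p = 0.0629). Stat2, another subunit of ISGF3, did not pass (0.33 ± 0.19, adjusted p = 0.343). In spleen doxycycline 1 of the 21 was called lower, beside 0.173% of all genes. It was Socs1, an inhibitor of JAK signalling (34.0 ± 0.8 to 8.74 ± 6.79 CPM, -1.95 ± 0.40, adjusted p = 0.0451). In secondary disease against spleen control 5 of the 21 were called lower, among them Irf7 (-3.34 ± 0.45, adjusted p = 0.00201), Irf9 (-1.32 ± 0.21, adjusted p = 0.00648), Socs1 (-2.02 ± 0.36, adjusted p = 0.0118) and Usp18, which restrains interferon receptor signalling (-4.59 ± 0.50, adjusted p = 0.000607). The median over the 21 was -0.27, against 0.02 for all genes, of which 1.28% were called lower. Against spleen doxycycline 4 were called lower, namely Irf7, Irf9, Socs3 and Usp18, beside 0.707% of all genes.

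Among 29 type I interferon effector genes tested, 2 rose and 1 fell in bone marrow doxycycline, with a median of 0.34. Of all genes, 3.96% were called higher and 2.61% lower, so these small counts do not set the list apart. Isg15, a ubiquitin-like modifier, rose from 20.4 ± 4.0 to 157.5 ± 32.1 CPM (2.95 ± 0.55, adjusted p = 0.0115), and Ifit1 rose from 2.65 ± 1.45 to 60.1 ± 8.4 CPM (4.50 ± 1.16, adjusted p = 0.0352). Ifit2, of the same family as Ifit1, fell from 40.8 ± 6.0 to 16.5 ± 1.5 CPM (-1.30 ± 0.21, adjusted p = 0.00597). In spleen doxycycline, Phf11d rose (2.45 ± 0.29, adjusted p = 0.0102), the 1 call of 29, and the median was -0.82. Of all genes, 0.568% were called higher there. At an unadjusted p under 0.05, in either direction, were 12 of the 29 in spleen, beside 12.4% of all genes. In the response of spleen minus that of bone marrow there were also 12 of the 29, beside 7.63% of all genes. The median there was -1.26, and 1 of the 29 was called, higher. Against spleen control, secondary disease had 14 of the 29 called lower and 1 higher, beside 1.28% and 0.748% of all genes, with a median of -1.84. Of 18 nucleic acid sensors and adaptors tested, 0 were called in bone marrow by edgeR, beside 6.57% of all genes, with 1 at an unadjusted p under 0.05. In spleen 1 was called lower, beside 0.173% of all genes. It was Ddx58, which encodes the RNA sensor RIG-I (115.9 ± 4.4 to 34.3 ± 20.8 CPM, -1.76 ± 0.37, adjusted p = 0.0488). In secondary disease 3 were called lower against spleen control (Adar, Ddx58 and Dhx58) and 0 against spleen doxycycline (6 at an unadjusted p under 0.05), where 4 of the 29 effectors were called lower. Of all genes, 1.28% and 0.707% were called lower in these comparisons.

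Members resembled each other to different degrees across libraries. As a description over 16 libraries that share groups, Pearson's r of log2 CPM between members ran from 0.62 (Oas1a with Oasl2, and Oas1b with Oasl2) to 0.96 (Oas1g with Oas2, and Oas1c with Oas2). Over the 12 libraries at 7 days, r between Oas1a and Oasl1 was 0.92, between Oas3 and Oasl2 0.84, and between Oas1a and Oasl2 0.08. Among 10098 genes ranked, the one most alike to Oas1a was Bst2 (r = 0.967), followed by Ddx58 and Irgm1. The closest to Oas1b were Mx2, Irf7 and Adar, and to Oas1c H2-T24 and Sp100. For Oas2 they were Lgals3bp, Usp18 and Tgtp1, for Oas3 Pml, Irf9 and Irf7, and for Oasl1 Tgtp1, Trim30a and Lgals3bp. Oasl2 was most alike to Patl2 (r = 0.948), Gas2l3 and Irgm2. The r values of these genes lay between 0.93 and 0.972.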

How the data were processed

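The members and gene lists were chosen with earlier results of these data known. The authors deposited a table of expected counts (estimated counts per gene, which need not be whole) and a TPM file per library. STAR, RSEM, Trim Galore, FastQC, MultiQC and GRCm38 are in the submitters' processing notes, with no versions or roles. Per the labels, RNA was isolated with TRIzol, and libraries were made after oligo-dT enrichment. Each TPM file correlated best with its own count column across genes, relative to gene means (lowest r = 0.902), and 0 columns lacked a library.

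Expected counts were rounded and tested with edgeR 4.0.16 (R 4.3.3; quasi-likelihood, robust) after filterByExpr and TMM, in 1 model of 16 libraries with a mean per group and 7 contrasts. P-values are two-sided, adjusted by Benjamini-Hochberg over 14435 genes and called under 0.05. The SE is the size of the log2 fold change divided by the root of F. Fold changes are given where they exceed their SE. Named list genes were called in the bone marrow, spleen or tissue comparison, with Stat2, Irf7 and Irf9 added; some results are not reported here. Usp18, Socs3, Adar and Dhx58, called in secondary disease, and the single cell type markers were named after their values were seen. Of each member averaging at least 3 CPM, the 3 genes highest in r (prior count 2, average log2 CPM of at least 1, without members, predicted genes and pseudogenes) were named. Errors elsewhere are SD. Depth limits low counts: intervals cover counting error alone. Tried besides were no filter, DESeq2 size factors, a replicate block, the groups compared alone, DESeq2 1.42.0, limma-voom (3.58.1), leaving out each library and summing the Oas1 genes. The steps were tested on simulated data with the same spread for every gene and group. The libraries here differed in spread, so that test does not cover calls that depend on single libraries.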

Additional observations from a re-analysis of the deposited data

Results flagged for a closer look

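Oas1g stood at 0 CPM in secondary disease replicate 4 while the other 3 libraries of the group lay close together, so that its gap on the log2 scale was 0.953 of the range of the group, above the critical value of Dixon's test. Each of these libraries had 1 or 0 counts after rounding, and replicate 4 was the shallowest, with 12259707 counts. Of 8 members looked at, 1 was flagged. The critical value and its chance rate of about 1 in 20 groups assume continuous values. At 1 or 0 counts the flag cannot tell a lower level from a step of a single count.

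For Oas2 and for Oas1c, every doxycycline library was above all controls in bone marrow and below all controls in spleen. Of all genes tested, 23.1% lay higher without overlap in bone marrow and 10.7% lay lower without overlap in spleen. The share of all genes with both patterns was not tested. The response in spleen minus that in bone marrow was -4.09 for Oas2 (adjusted p = 0.201) and -0.70 for Oas1c (adjusted p = 0.682) on the log2 scale. Neither difference passed the edgeR test. Over its alternatives the adjusted p of Oas2 ran from 0.00945 to 0.647.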

How the results depend on the processing

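None of the member fold changes above their SE reversed under any alternative run. Of the 6 under their SE, Oas3 and Oasl2 in spleen changed sign with the replicate block, with limma-voom and without spleen doxycycline replicate 2. Oas1a between treated tissues did so without bone marrow doxycycline replicate 2 and without spleen doxycycline replicate 3. In brackets after each count of members is the percentage of all genes called in the same fit. Members called in bone marrow (1, 6.57%) became 0 with no filter (1.23%) and 2 with the replicate block (13.6%) or limma-voom (6.51%). They became 3 with DESeq2 (14.4%), 5 with the 6 libraries alone (36.6%), and 0 to 2 with a library left out (0.154 to 17%). In the difference between tissues (0, 0.0485%) DESeq2 (1.8%) and limma-voom (0.236%) each called 1, and leaving out a library gave 0 to 5 (0 to 4.32%). In spleen (0, 0.741%) leaving out a library gave 0 to 1 (0 to 9.13%). Between treated tissues (0, 0.0485%) DESeq2 (3.15%) and limma-voom (0.443%) each called 1, and leaving out a library gave 0 to 3 (0.00665 to 7.18%). Between controls (0, 0.187%), 6 were called with those libraries alone (14.7%). Against spleen control, secondary disease (6, 2.03%) had 4 with no filter (0.473%) and 5 with those libraries alone (3.07%). It had 8 with DESeq2 (5.45%) or the replicate block (2.92%), and 4 to 7 with a library left out (0.405 to 3.67%). Against spleen doxycycline (4, 0.928%) it had 1 with no filter (0.0918%) and 0 with those libraries alone (0%) or limma-voom (0.457%). It had 7 with DESeq2 (6.24%), 3 with the block (2.4%), and 0 to 7 with a library left out (0 to 8.94%). The cause of these changes was not tested. Among all genes, those called in bone marrow numbered 949, and 349 to 4929 under the alternatives that kept all libraries of the comparison. With a library of the bone marrow groups left out they were 23 to 232. They were 2428 without secondary disease replicate 4. DESeq2 size factors left the members called the same in all 7 comparisons. Same-numbered libraries of different 7-day groups, each taken relative to its group mean of 3 libraries, correlated between -0.266 and 0.163. This gave no sign of pairing but cannot exclude it, since larger differences between libraries could hide it. Depth limits Oas1g and Oas2 in secondary disease, with 3 and 13 counts in all.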
